A study of Homo sapiens and Mus musculus and synthetic construct with 31 samples.

Results

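Bone morphogenetic protein (BMP) signalling and its best known target genes, the ID genes, were followed across human and mouse embryonic stem cells (hESCs and mESCs). The set held 9 genes that were chosen by name: the 4 inhibitor of DNA binding genes ID1, ID2, ID3 and ID4, the ligand BMP4, the type I receptor BMPR1A, the receptor-activated signal carriers SMAD1 and SMAD5, and the inhibitory SMAD6. Each was found once among the 63677 genes of the human count tables and once, under the same symbol, among the 37991 genes of the mouse tables. BMP ligands bind pairs of type I and type II receptor kinases on the cell surface, and the type I receptor phosphorylates SMAD1 and SMAD5, which enter the nucleus with SMAD4. There they raise transcription of the ID genes, whose products bind E proteins and keep them and their partners from binding DNA. The pathway has long been studied in stem cells, since BMP4 helps to hold mouse ESCs undifferentiated in serum-free medium with LIF, whereas it drives human ESCs towards trophoblast and other fates.

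The hESCs were HUES64, an established line kept feeder-free on mTeSR1, and the mESCs were a feeder-free line from mouse blastocysts kept in 2i, a medium with inhibitors of MEK and GSK3. Each cell type was sampled as 1 line over 3 passages, both untransfected and after transient transfection with a pool of reporter plasmids. The hESCs were transfected with LipofectStem and the mESCs with Lipofectamine 2000, at different cell numbers and plasmid amounts. Species, line and medium therefore cannot be told apart here, nor can the reagent and the dose of plasmid per cell in the responses to transfection. RNA-seq gave 9 libraries of transfected hESCs (3 transfections of each passage), 3 of untransfected hESCs, 3 of transfected mESCs and 3 of untransfected mESCs. The number in each RNA-seq title was taken as the passage, a word that the titles do not use. Ratios by passage pair libraries of the same number. Nothing in the labels ties passages to separate thaws or derivations, so p-values measure the spread between libraries from 3 passages of 1 line.

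The libraries held between 15107041 and 22018956 counted fragments, and fragments from the 3 transfections of each hESC passage were added up, to between 49048903 and 56336211. No 2 libraries of a group had identical counts. The pluripotency markers POU5F1, SOX2, NANOG, SALL4 and DPPA4 were detected in every group, with summed levels of 1243 to 1723 cpm (the usual depth-scaled count, a gene’s count over the library total) in hESCs and 2350 to 2680 cpm in mESCs. The 6 naive-state markers summed to 134 to 169 cpm in hESCs and 3215 to 3891 cpm in mESCs. The 4 primed-state markers summed to 1749 to 2528 cpm and 101 to 174 cpm, with FGF5 at 0 in all hESC passages. Trophoblast markers summed to at most 8.58 cpm in hESCs and 81.7 cpm in mESCs, the latter nearly all from GATA2 and KRT7. Mesoderm markers summed to at most 2.16 cpm. Counting took no account of strand, so reads of a gene and of an overlapping antisense gene, such as those annotated opposite ID2, ID4, SMAD1, SMAD5 and mouse Bmp4, cannot be told apart.

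ID1 and ID3 are shown first because the largest differences fell on them. Their 300-base windows run from 250 bases before the outermost annotated 5′ end of the gene to 50 bases after it, and were read from the reference genomes in the gene's own direction. In capitals are GGCGCC, the GC-rich palindrome that SMAD1 and SMAD5 can bind, CAGAC or its reverse complement GTCTG, a short form of the SMAD4 binding element, and TATAAA or its reverse complement TTTATA. Matches may overlap, as the pair in human ID1 does.
ID1 human, hg19, chr20:30192836-30193135, plus strand: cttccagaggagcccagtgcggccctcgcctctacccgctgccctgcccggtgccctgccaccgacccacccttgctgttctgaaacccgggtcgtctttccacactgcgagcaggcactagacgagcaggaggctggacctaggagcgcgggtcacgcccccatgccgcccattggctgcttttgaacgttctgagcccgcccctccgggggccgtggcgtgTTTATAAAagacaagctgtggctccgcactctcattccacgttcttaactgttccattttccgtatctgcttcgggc
ID1 mouse, mm9, chr2:152561737-152562036, plus strand: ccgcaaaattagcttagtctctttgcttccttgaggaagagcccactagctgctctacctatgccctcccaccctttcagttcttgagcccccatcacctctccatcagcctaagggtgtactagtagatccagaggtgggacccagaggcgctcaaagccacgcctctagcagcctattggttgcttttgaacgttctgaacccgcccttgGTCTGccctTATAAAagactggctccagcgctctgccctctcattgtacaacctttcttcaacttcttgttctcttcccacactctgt
ID3 human, hg19, chr1:23886236-23886535, minus strand: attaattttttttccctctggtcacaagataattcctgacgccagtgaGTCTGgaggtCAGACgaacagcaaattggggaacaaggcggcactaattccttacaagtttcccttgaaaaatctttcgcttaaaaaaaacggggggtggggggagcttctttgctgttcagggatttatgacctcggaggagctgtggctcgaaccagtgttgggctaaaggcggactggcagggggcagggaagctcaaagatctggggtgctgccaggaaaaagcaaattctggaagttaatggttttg
ID3 mouse, mm9, chr4:135699162-135699461, plus strand: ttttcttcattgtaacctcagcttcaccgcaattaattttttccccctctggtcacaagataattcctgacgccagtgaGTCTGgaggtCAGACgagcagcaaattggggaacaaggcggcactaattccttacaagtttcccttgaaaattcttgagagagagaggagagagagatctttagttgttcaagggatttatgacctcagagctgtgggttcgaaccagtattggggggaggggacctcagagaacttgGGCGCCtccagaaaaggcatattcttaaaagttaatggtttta

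The ID3 windows share a block in which GTCTG and CAGAC stand close together on both genomes, and GGCGCC occurred in the mouse window only. Both ID1 windows hold TATAAA, which occurred in 6.98% of all human windows of this length and in 7.22% of all mouse windows. GGCGCC occurred in 25.9% of human and 20.3% of mouse windows, and CAGAC in 43.2% and 47.3%. In longer windows of 1550 bases, which start 1500 bases before the 5′ end, ID1 held GGCGCC once on each genome. ID3 held it once in mouse and not in human. Of all such longer windows, 46.0% held it in human and 29.6% in mouse. After global alignment, 79.0% of the 300 bases were identical between the species at ID3, 66.7% at ID1 and 87.0% at SMAD6, against a median of 60.0% over 11473 ortholog pairs. At ID4 and BMPR1A 51.7% were identical. The 5′ ends were those of the outermost annotated transcript, which need not be the one used in these cells.

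The first comparison asked which of the 9 genes differed between mESCs and hESCs. ID1, ID3 and BMP4 were lower in mESCs, ID1 by 54.4-fold and ID3 by 84.0-fold, and ID4 and SMAD6 were higher, by 5.26-fold and 4.18-fold. The fitted folds of ID1 and ID3 rest on 2 to 22 and 3 to 57 mESC fragments a library. Their size is thus uncertain, and count ratios are given below. ID2, BMPR1A, SMAD1 and SMAD5 did not pass the test. In such bulk samples fewer cells that express a gene and less RNA per cell cannot be told apart. A pair was called where its log2 fold change reached 1 in size and its adjusted p fell below 0.01. The fit was edgeR quasi-likelihood over 12 libraries with transfection as a covariate. It took the transfected and untransfected library of a passage as independent, although those of mESCs deviated together. ID1, ID3, BMP4, ID4 and SMAD6 were also called with the passage as a block. Tested pairs had 1 cpm in at least 3 libraries, which 1 cell type alone can supply. ID1 and BMP4 met this through hESCs alone. Of all 11518 ortholog pairs tested, 55.9% were called, 26.4% higher and 29.4% lower in mESCs, beside 5 of the 9 genes, 2 higher and 3 lower. With the exon length of each species as an offset, 4084 pairs were higher and 3061 lower, where 3044 and 3390 were without it. The median log2 ratio of human to mouse exon length was 0.28. The share among the 9 genes was thus close to that of all pairs, and the median log2 fold change was -0.19 against -0.03.

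ID1, the most classical BMP target, had 38.96, 34.18 and 35.92 cpm in untransfected hESCs of passages 1, 2 and 3, and 23.2, 26.3 and 38.0 cpm as the lowest, median and highest of the 9 transfected libraries. In untransfected mESCs it had 0.53, 0.80 and 0.47 cpm, from 8, 15 and 9 fragments, and in transfected mESCs 1.28, 0.11 and 0.25 cpm, from 22, 2 and 5 fragments. No mESC library reached the lowest hESC library, and the log2 fold change was -5.76 (SE 0.33, edgeR adjusted p = 8.2e-10). How many of all pairs separate in this way was not counted, here or for the genes that follow. Over the untransfected libraries, the ratio of hESCs to mESCs was 59.9, with an exact 95% interval for counting error alone of 42.3 to 87.8. Over the transfected libraries it was 53.6 (37.3 to 80.1).

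ID3, a second classical target, had 78.5, 55.8 and 87.0 cpm in untransfected hESCs and 108, 167 and 197 cpm as the lowest, median and highest transfected library. In mESCs it had 0.99, 0.86 and 0.16 cpm untransfected, the last from 3 fragments, and 3.31, 2.49 and 0.51 cpm transfected. The groups of the 2 cell types did not overlap, and the log2 fold change was -6.39 (SE 0.39, edgeR adjusted p = 1.7e-09). In both mESC groups passage 3 was the lowest library. The ratio of hESCs to mESCs was 115 (exact counting interval 82.1 to 166) over the untransfected and 75.5 (62.6 to 91.8) over the transfected libraries.

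ID2 showed another pattern, with 20.2, 18.3 and 24.4 cpm in untransfected hESCs and 16.3, 15.2 and 14.5 cpm in untransfected mESCs. Transfected hESCs ranged from 13.0 to 24.8 cpm (median 19.5), and transfected mESCs had 17.7, 20.9 and 16.5 cpm. The ranges overlapped and the log2 fold change was -0.19 (SE 0.15, edgeR adjusted p = 0.26). Per length its sign turned: with the exon length of each species as an offset it was 0.60 (SE 0.15), still under the fold threshold. The annotated exons of human ID2 span 2205 bases against 1270 in mouse.

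ID4 ran against ID1 and ID3. It had 4.12, 6.35 and 3.32 cpm in untransfected hESCs and 2.31, 3.69 and 5.71 cpm as the lowest, median and highest transfected library. In mESCs it had 20.6, 21.1 and 17.5 cpm untransfected and 20.01, 25.73 and 25.06 cpm transfected. All mESC libraries lay above all hESC libraries, with a log2 fold change of 2.40 (SE 0.22, edgeR adjusted p = 1.2e-07).

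BMP4, the ligand, had 3.26, 6.84 and 3.18 cpm in untransfected hESCs and 1.58, 2.26 and 3.00 cpm as the lowest, median and highest transfected library. In mESCs its 6 libraries held 1 to 3 fragments each, or 0.05 to 0.17 cpm. The untransfected ratio of hESCs to mESCs was 58.5 with an exact counting interval of 22.6 to 216, from 271 against 4 fragments. The transfected ratio was 21.0 (9.54 to 57.5), from 363 against 6 fragments. The gene was called, with edgeR adjusted p = 1.5e-08, and the fitted fold change is not given because it depends on the handling of such low counts.

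BMPR1A, a type I receptor that binds BMP4, had 137, 110 and 116 cpm in untransfected hESCs and 96.1, 100.0 and 93.6 cpm in untransfected mESCs. Reads shared with its human pseudogenes may be split between them, and BMPR1AP1 and BMPR1AP2 held 2 to 29 and 2 to 18 fragments a library against 497 to 2568 for BMPR1A. Its log2 fold change was -0.02 (SE 0.21), and 0.82 (SE 0.22) with gene length as an offset. SMAD1 had 21.2, 18.7 and 20.8 cpm in untransfected hESCs and 21.8, 18.8 and 20.3 cpm in untransfected mESCs, with a log2 fold change of 0.29 (SE 0.15). SMAD5 had 83.7, 72.9 and 82.0 cpm against 47.3, 44.1 and 47.3 cpm in the same groups. These untransfected groups of SMAD5 did not overlap, but over all libraries hESCs ranged from 15.3 to 87.1 cpm and the log2 fold change was -0.42 (SE 0.27, edgeR adjusted p = 0.16).

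SMAD6, which binds activated type I receptors and blocks the relay, was low in hESCs and higher in mESCs. It had 2.03, 1.46 and 1.36 cpm in untransfected hESCs and 0.95, 1.81 and 2.49 cpm as the lowest, median and highest transfected library. In mESCs it had 7.61, 6.26 and 7.56 cpm untransfected and between 6.56 and 6.90 cpm transfected. The cell types did not overlap, and the log2 fold change was 2.06 (SE 0.15, edgeR adjusted p = 1.3e-08). The same 5 genes were called under each of the 16 alternative settings, gene length included. With untransfected libraries alone, where no reagent was used, the log2 fold changes were -5.82 for ID1, -6.75 for ID3, 2.17 for ID4 and 2.22 for SMAD6.

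Other marker genes differed in both directions, where 29.4% of all pairs were lower in mESCs and 26.4% higher. Higher in mESCs were 3 of 3 trophoblast markers tested, 5 of 6 naive-state markers and 1 of 2 endoderm markers. GATA2, a trophoblast marker, had 0.18 ± 0.13 cpm in untransfected hESCs and 32.1 ± 14.8 cpm in untransfected mESCs. GATA3, also called, had only 0.65 ± 0.18 cpm in untransfected mESCs. The trophoblast markers CGA, CDX2 and HAND1 were not tested and stayed at 0.27 cpm or less in every group. Lower, like ID1, ID3 and BMP4, were 2 of 3 primed-state and 1 of 2 endoderm markers. So were the 1 mesoderm and 1 neural marker tested. The 6 fibroblast or feeder markers summed to 571 to 643 cpm in untransfected hESCs and 2.05 to 3.15 cpm in untransfected mESCs, and to 803 to 1175 and 2.15 to 3.36 cpm after transfection. All 4 tested were lower in mESCs, COL1A1 by 82.0-fold and THY1 by 583-fold. COL1A2 had 9 fragments in untransfected and 0 in transfected mESCs, and POSTN had 2 and 1. The fitted fold changes of COL1A2 and POSTN are not given because they depend on the handling of such low counts. DCN was at 0 in all mESC libraries and in transfected hESCs, and COL3A1 was at 0.20 cpm or less in every group. NES, a neural marker, was lower by 12.2-fold. Their part in the values of ID1, ID3 and BMP4 was not tested.

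**Figure D1:**
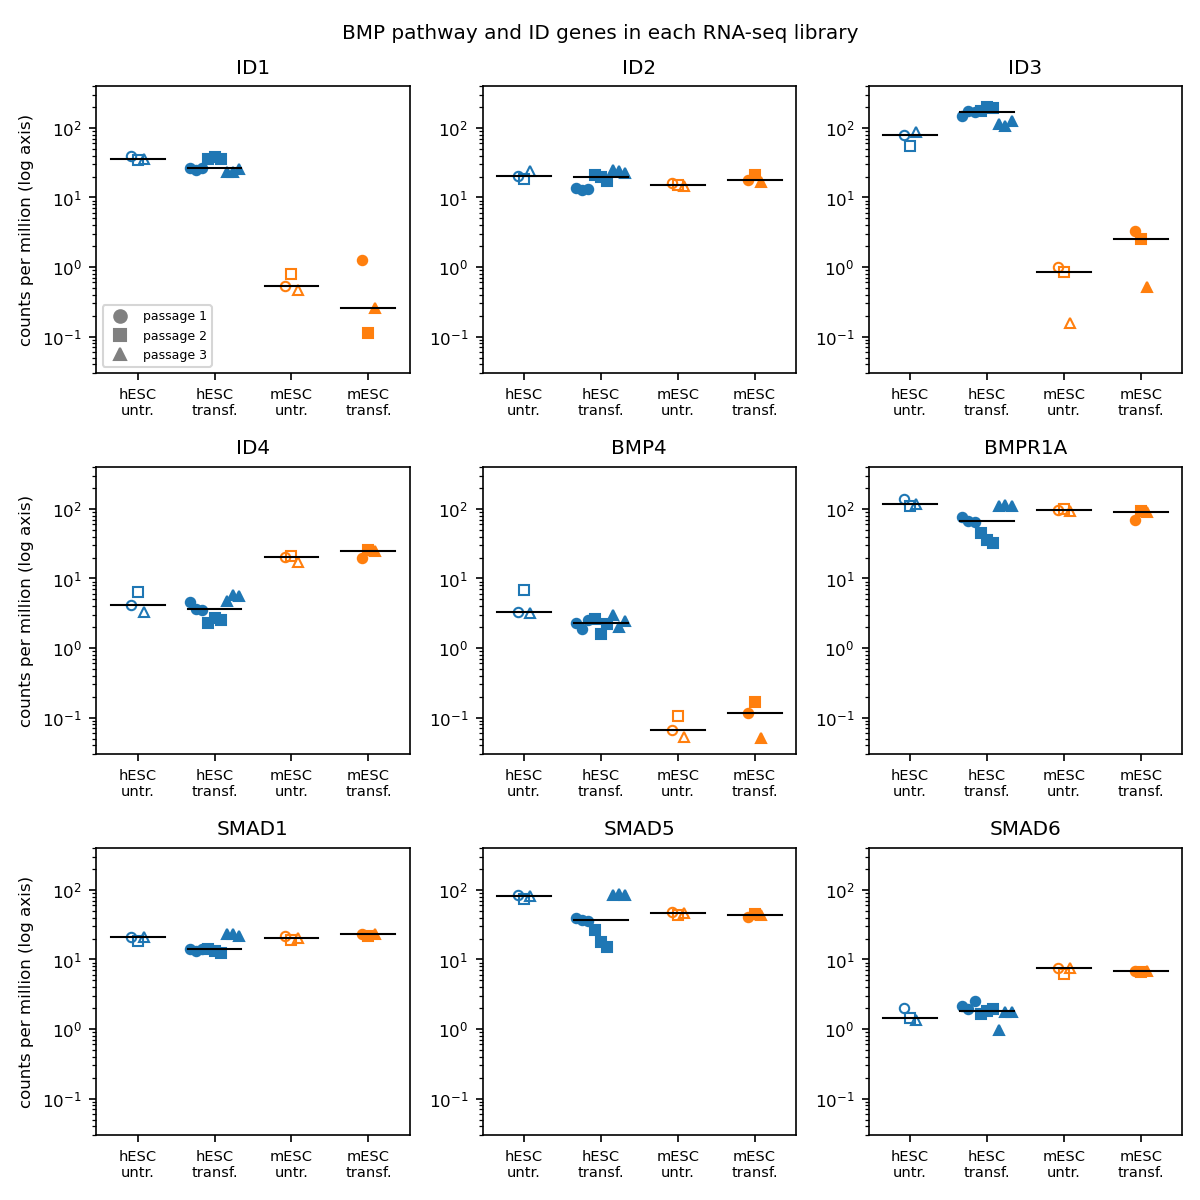
Level of each of the 9 genes in every RNA-seq library, in cpm on a log axis, with hESCs in blue, mESCs in orange, open symbols for untransfected and filled symbols for transfected cells, symbol shapes for passages and black bars for group medians. ID1, ID3 and BMP4 sit far lower in mESCs, ID4 and SMAD6 sit higher, and SMAD5 and BMPR1A spread by passage in transfected hESCs.

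**Figure D2:**
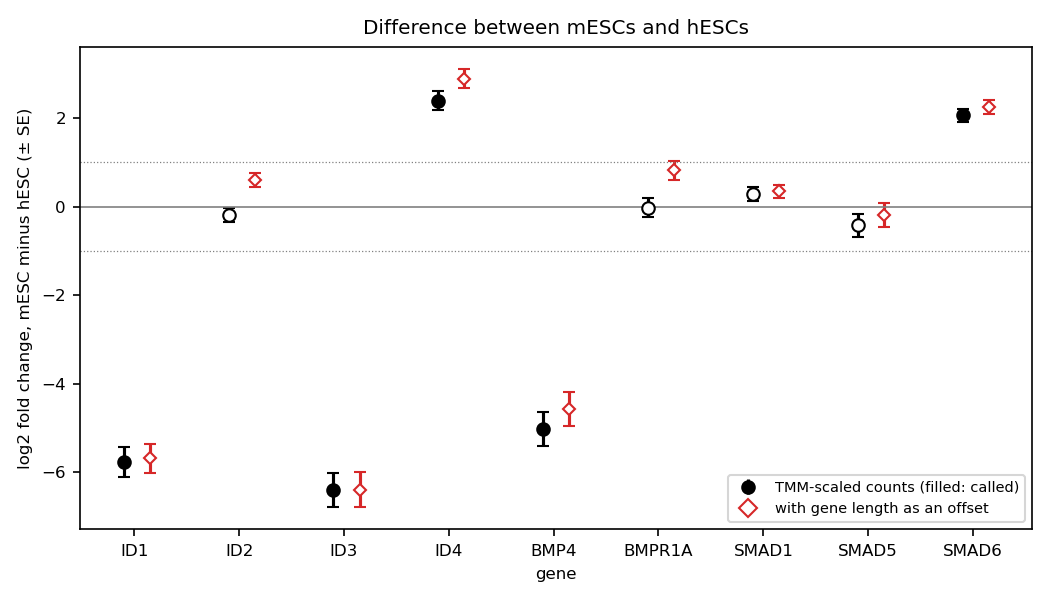
Log2 fold change (mESC minus hESC) of each gene with its standard error, from scaled counts (black circles, filled where called) and with gene length as an offset (red diamonds). ID1, ID3 and BMP4 lie below -4 on both, ID4 and SMAD6 above 2, and ID2 and BMPR1A move up with the length offset.

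Levels of different genes were compared per length, as RPKM (fragments per kilobase of annotated exon, scaled like cpm), over the 3 passages. In untransfected hESCs ID3 (41.0 ± 8.98 RPKM, SD, n = 3) and ID1 (29.5 ± 1.97) were the highest, and their ranges overlapped. BMPR1A (10.7 ± 1.28), ID2 (9.51 ± 1.41) and SMAD5 (9.06 ± 0.66) followed, each overlapping its neighbour. SMAD1 (3.34 ± 0.22), ID4 (1.96 ± 0.67), BMP4 (1.44 ± 0.68) and SMAD6 (0.44 ± 0.10) closed the order, in which only ID4 and BMP4 overlapped. In untransfected mESCs BMPR1A (15.2 ± 0.51) came first, followed by ID2 (12.1 ± 0.70) and ID4 (11.9 ± 1.16), whose ranges overlapped. SMAD5 (6.23 ± 0.25), SMAD1 (3.49 ± 0.25) and SMAD6 (2.23 ± 0.24) were separate from each other, and ID1 (0.52 ± 0.15) and ID3 (0.37 ± 0.25) overlapped near the bottom. BMP4 was last with 0.03 ± 0.01 RPKM. The 4 ID genes together summed to 115 to 151 cpm in untransfected hESCs, of which ID3 and ID1 made up most, and to 32.7 to 38.4 cpm in untransfected mESCs, where ID2 and ID4 did.

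Genes of like pattern were taken as the 3 ortholog pairs with the highest Pearson r of log2(RPKM + 1) over the 12 libraries, among 11414 pairs. The 12 points fall into the 2 cell types, so that r mainly reflects the difference between them. For ID1 these were ADAR (0.996), IKZF4 and UCMA (both 0.995), and for ID3 GNA12, LYPLA2 and APH1A (all 0.996). For ID4 they were EIF4B, SLC25A16 (both 0.991) and ANAPC13 (0.990). ID2 had no pair as close, with HEXIM1 (0.912), CBLL1 (0.910) and GCLM (0.902) at the top. Within the set r was 0.969 between ID1 and ID3, -0.984 between ID1 and ID4, and -0.767 between ID1 and ID2. The sign of the last rests on length scaling, since ID2 was higher in mESCs per length and its scaled counts gave a log2 fold change of -0.19.

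The wider pathway was taken from a list of 56 other genes, of which 37 ortholog pairs were tested, 10 were higher in mESCs and 13 lower. That is 62.2%, beside 55.9% of all pairs. Of the 13 secreted BMP antagonists, 8 were tested, 2 were higher and 5 lower. CER1, CHRDL1, GREM1 and FSTL3, among the 5 lower, met the filter through hESCs alone. CER1, a Nodal and BMP antagonist, had no fragment in any of the 6 mESC libraries and 4.06 ± 2.20 cpm (SD, n = 3) in untransfected hESCs, at least 69.4-fold higher in hESCs at a floor of 3 fragments over the group. CHRDL1, a chordin-like antagonist, had no fragment in untransfected mESCs and 29.4 ± 2.21 cpm in untransfected hESCs, at least 519-fold higher. GREM1, the antagonist gremlin, had 1 fragment in untransfected mESCs and 52 in untransfected hESCs, a ratio of 44.9 with an exact counting interval of 7.71 to 1807. FSTL3, a follistatin-like protein that binds activin and BMP ligands, had 3.62 ± 0.68 cpm in untransfected hESCs and 0.14 ± 0.08 cpm in untransfected mESCs. These came from 220 and 7 fragments, and its fitted log2 fold change was -4.75 (SE 0.25).

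Among receptors, BMPR1B, a second type I BMP receptor, was lower in mESCs. It had 1.43 ± 0.21 cpm in untransfected hESCs and 0.07 ± 0.12 cpm in untransfected mESCs, from 88 and 4 fragments. Its fitted log2 fold change of -3.73 (SE 0.51) depends on the handling of such low counts. Of 10 other receptors and co-receptors, 8 were tested, 1 was higher and 3 lower. All 5 tested ligands of the 13 others were called, 3 higher and 2 lower. BMP2 and BMP6 met the filter only in hESCs, with at most 0.66 and 0.57 cpm in mESCs. BMP8A met it only in mESCs, with at most 0.23 cpm in hESCs. Such genes enter the test because they are high in 1 cell type, so no conclusion is drawn from the share of ligands called. Of 8 other target genes, 5 were tested, 1 was higher and 2 were lower. The higher one was DUSP9, a phosphatase of ERK that BMP4 induces in mESCs, with 0.86 ± 0.16 cpm in untransfected hESCs and 20.4 ± 6.70 cpm in untransfected mESCs (log2 fold change 4.53, SE 0.19). The 3 E proteins that ID proteins bind (TCF3, TCF4 and TCF12), named as a whole list, were all tested and none was called, at log2 fold changes of -0.60, -0.46 and -0.32.

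**Figure D3:**
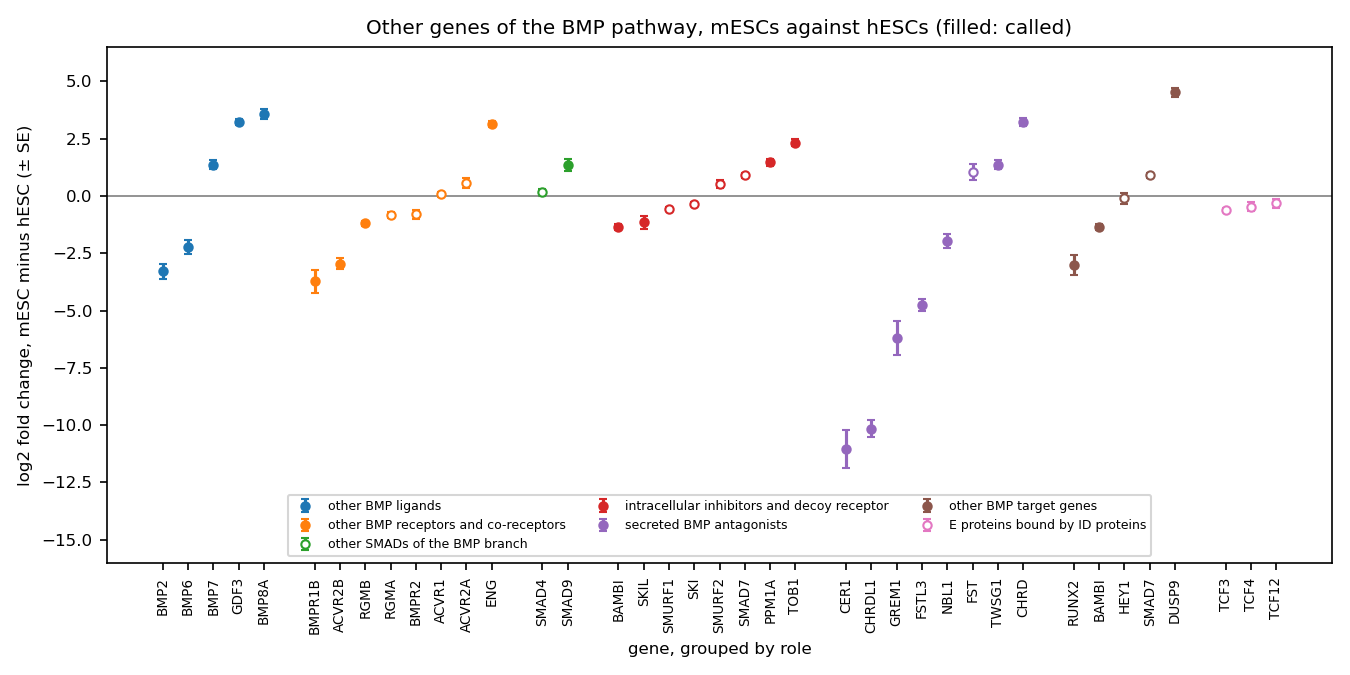
Log2 fold change (mESC minus hESC) with its standard error for the other tested genes of the pathway, grouped by role and ordered by value, with filled symbols for called genes. BAMBI and SMAD7 stand in both the inhibitor and the target groups. The secreted antagonists CER1 and CHRDL1, fitted against 0 to 2 mESC fragments, reach the lowest values, DUSP9 the highest, and the E proteins lie near 0.

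The second comparison asked how transfection with the reporter plasmids changed the set in hESCs. None of the 9 genes was called by edgeR at an adjusted p under 0.05, where 168 of 18060 genes, or 0.93%, were. At an unadjusted p under 0.05, 2 of the 9 passed, ID3 and BMP4, which is close to the 24.2% of all genes that did. The ratios of transfected to untransfected cells for ID3 were 2.20, 3.30 and 1.32 in passages 1, 2 and 3 with a log2 fold change of 1.09 (SE 0.23, edgeR adjusted p = 0.077). DESeq2 called 1 of the 9, ID3 (5.5% of all genes), and limma-voom 0 (0.764%). All 9 transfected libraries had 108 cpm or more of ID3, and the 3 untransfected libraries 87.0 cpm or less. Those 9 are 3 transfections of each of 3 passages and so not independent. How many of all genes separate in this way was not counted. Fibroblast markers, COL1A1, COL1A2 and THY1 above all, summed to 571 to 643 cpm in untransfected and 803 to 1175 cpm in transfected hESCs. DCN was at 0 in the latter and COL3A1 at 0.12 cpm or less there. Neural markers summed to 363 to 460 and 585 to 635 cpm, nearly all from NES, with PAX6 and SOX1 at 1.55 cpm or less. None of the 4 fibroblast and 2 neural markers tested was called. POSTN and PAX6 had negative log2 fold changes, of -0.38 and -1.66. THY1 is also a surface marker of hESCs. Of 3 primed-state markers tested, only the transcription factor OTX2 was called, and it was lower after transfection. It had 82.7 ± 17.8 cpm (SD, n = 3) untransfected and 21.5 ± 7.51 cpm transfected (log2 fold change -1.93, SE 0.28, edgeR adjusted p = 0.028). ZIC2 and DNMT3B had log2 fold changes of -0.17 and -0.27 and were not called. The part of these markers in the ID3 values was not tested.

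ID1 had ratios of 0.71, 1.04 and 0.67 in the same passages, a log2 fold change of -0.32 (SE 0.19, edgeR adjusted p = 0.28). ID2 had ratios of 0.70, 1.04 and 0.98, and ID4 of 1.01, 0.39 and 1.62, so neither lay on one side of 1 throughout. BMP4 had ratios of 0.73, 0.30 and 0.79 (log2 fold change -0.93, SE 0.33, edgeR adjusted p = 0.17). The highest BMP4 library of all was the untransfected one of passage 2, at 6.84 cpm. SMAD6 had ratios of 1.15, 1.20 and 1.07.

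The receptor and the receptor-activated SMADs split by passage. SMAD5 had 39.4, 36.6 and 36.0 cpm in the 3 transfections of passage 1 and 26.2, 17.9 and 15.3 cpm in those of passage 2. In passage 3 it had 83.5, 87.1 and 84.1 cpm, which is within the 72.9 to 83.7 cpm of untransfected cells or slightly above. BMPR1A had 75.8, 65.9 and 65.9 cpm in passage 1, 45.7, 35.3 and 32.2 cpm in passage 2, and 111.6, 114.4 and 111.6 cpm in passage 3, beside 110 to 137 cpm untransfected. SMAD1 had 14.0, 13.1 and 14.0 cpm in passage 1, 14.0, 13.1 and 12.3 cpm in passage 2, and 22.9, 23.2 and 21.4 cpm in passage 3. In passage 2 the transfections of SMAD5 and BMPR1A also differed from each other, and in all 3 genes passage 3 lay above the other passages. Over the 3 passages the log2 fold changes were -0.73 (SE 0.44) for SMAD5, -0.71 (SE 0.34) for BMPR1A and -0.28 (SE 0.23) for SMAD1, with edgeR adjusted p of 0.29, 0.23 and 0.42.

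Without passage 3, edgeR called 5 of the 9 genes in hESCs, ID3 higher and BMP4, BMPR1A, SMAD1 and SMAD5 lower, but also 7333 of 18272 genes, or 40.1%. Without passage 1 it called 0 genes, so that the call of OTX2 was lost too, and without passage 2 it called 83, none of them among the 9. BMPR1A, SMAD1 and SMAD5 have 11360, 6058 and 8778 bases of annotated human exon, merged over the transcripts of each gene. The length of their messages in these cells was not measured. Over all 7192 genes with exons over 5 kb, the median log2 ratio of transfected to untransfected hESCs was -0.19, -0.25 and -0.01 in passages 1, 2 and 3, and over the 3678 genes under 2 kb it was 0.11, 0.12 and 0.0048. The part of annotated exon length in the values of these 3 genes was not tested.

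**Figure D4:**
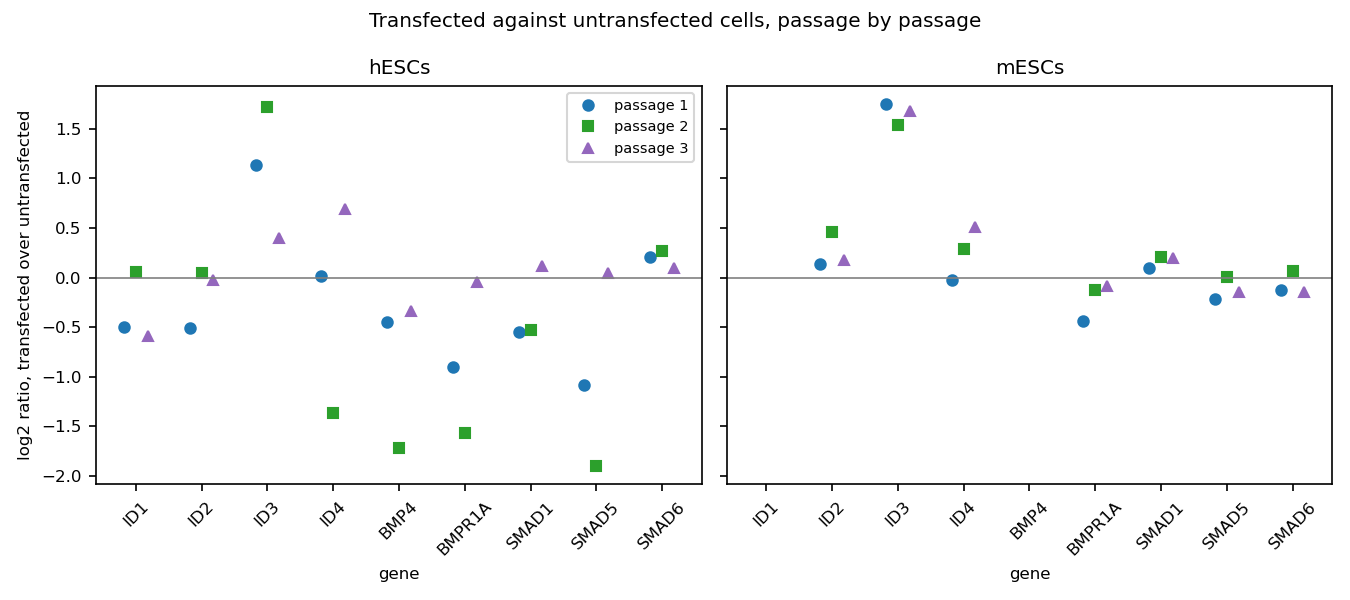
Log2 ratio of transfected over untransfected cells for each gene in each passage, in hESCs (left) and mESCs (right), where ID1 and BMP4 are left out for low counts. ID3 is above 0 in every passage of both cell types, and SMAD5 and BMPR1A in hESCs run from -1.90 and -1.57 in passage 2 to 0.05 and -0.05 in passage 3.

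**Figure D5:**
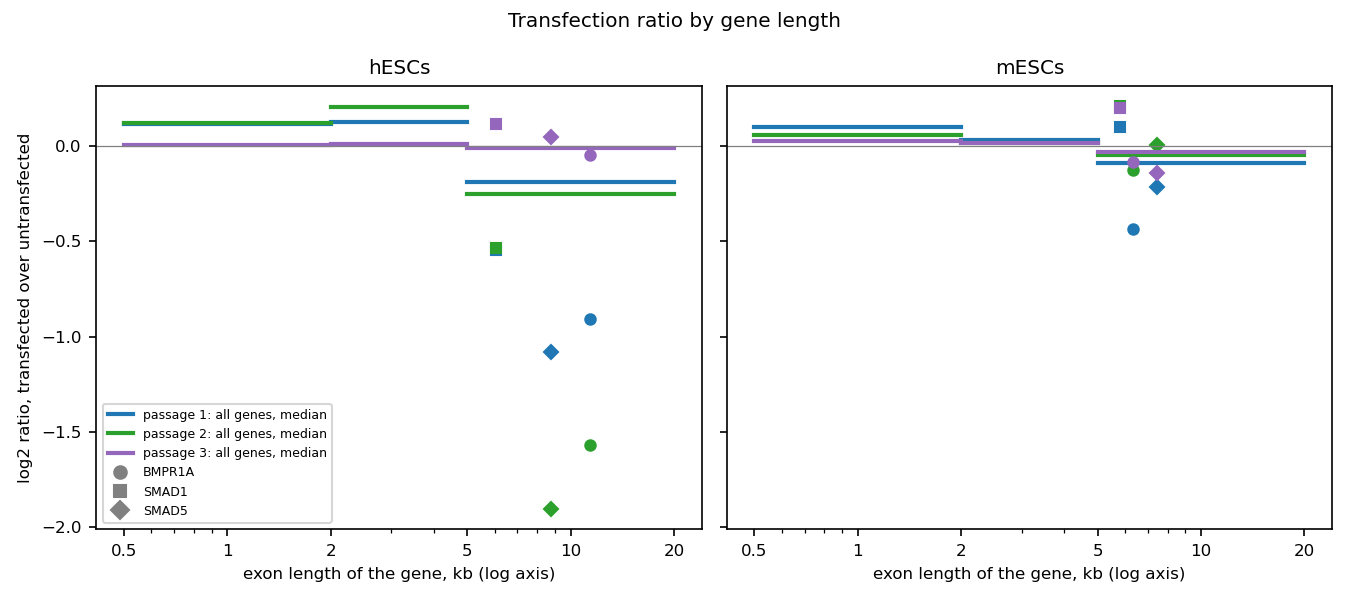
Log2 ratio of transfected over untransfected cells against exon length (log axis), with horizontal lines for the median of all genes in 3 length classes and symbols for BMPR1A, SMAD1 and SMAD5, coloured by passage. In hESC passages 1 and 2 the median of the long class lies at -0.19 and -0.25 and the 3 genes lie below it, while in passage 3 both lie near 0.

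In mESCs the ratio of ID3 was again above 1 in each passage. Low counts left ID1 and BMP4 untested, and none of the 7 genes tested was called by edgeR, where 158 of 14436 genes, or 1.09%, were. At an unadjusted p under 0.05 ID3 alone passed, 1 of 7 beside 19.7% of all genes. DESeq2 gave ID3 no adjusted p because of its low counts and called none of the other 6 (8.18% of all genes), and limma-voom called 0 of the 7 (1.16%). ID3 had 15, 16 and 3 fragments in the untransfected libraries and 57, 44 and 10 in the transfected ones. Its ratios were 3.37, 2.90 and 3.21 in passages 1, 2 and 3, while its level differed more. With so few fragments, 10 against 3 in passage 3, counting error on these ratios is large, and no interval was computed. The log2 fold change was 1.66 (SE 0.72, edgeR adjusted p = 0.24). Same-numbered mESC libraries deviated together, and with the passage as a block ID3 was called (log2 fold change 1.64, edgeR adjusted p = 0.0030), as 1 of 7 genes beside 23.0% of all 14436 genes.

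None of the other 6 genes tested in mESCs passed. ID2 had ratios of 1.10, 1.38 and 1.13, ID4 of 0.98, 1.22 and 1.42, and BMPR1A of 0.74, 0.92 and 0.94. SMAD1, SMAD5 and SMAD6 had log2 fold changes of 0.17, -0.12 and -0.07. Of the 31 other pathway genes tested in mESCs, 1 was called, the E protein TCF4, which was lower (69.2 ± 5.13 cpm untransfected and 49.3 ± 2.92 transfected, log2 fold change -0.49, SE 0.09, edgeR adjusted p = 0.048). Without passage 2 or without passage 3 no gene was called in mESCs, TCF4 included. In hESCs 0 of 43 other pathway genes were called, and the difference between the responses was called for 0 of 37.

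The last comparison tested whether the response to transfection differed between mESCs and hESCs. None of the 9 genes was called by edgeR, DESeq2 or limma-voom, where edgeR called 68 of 11518 ortholog pairs, or 0.59%, DESeq2 2.0% and limma-voom 0.425%. None of the 9 had an unadjusted p under 0.05, beside 11.0% of all pairs. For ID3 the difference was 0.66 on the log2 scale (SE 0.76), so that the higher ratio in mESCs was not distinguishable from that in hESCs. Without hESC passage 3, 3 of the 9 genes were called, BMPR1A, SMAD1 and SMAD5, beside 18.8% of the 11406 pairs then tested.

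The reporter library itself held no sequence that started within 500 bases of the 5′ end of any of the 9 genes on its strand. It did hold 14 sequences within 2000 bases on the opposite strand, at ID2, ID4 and BMPR1A, a window that was chosen after the positions were seen. Their activity, the ratio of RNA to DNA barcode counts scaled to the median of 1604 random sequences, had means over 3 passages of 0.73 to 2.12 in either cell type. The 95th percentile of the random sequences lay between 1.88 and 2.41, and no sequence exceeded it in every passage of a cell type. A sequence at mouse Id2 exceeded it in 2 hESC passages, at 2.17 against 2.16 and 2.23 against 2.19, and not in the other, at 1.95 against 2.41. The random sequences had a median of 3 barcodes and the 14 sequences 10 to 13, so their spreads cannot be compared directly.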

How the data were processed

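RNA-seq of untransfected and transfected hESCs and mESCs was deposited as tables of counts: the authors aligned reads with HISAT2 and counted read fragments per gene without strand with featureCounts 2.0.0. The file headers name mm9 for mouse, whereas the methods name mm10, and gene coordinates are those of the files (hg19 and mm9). For HISAT2 no version was found in the sources used. The members and gene lists were chosen with earlier results of these data known. The 3 hESC transfections of a passage were summed.

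Human and mouse genes were paired as in the study's ortholog list or by symbol (14553 pairs). Pairs at 1 cpm or more in at least 3 libraries, and within a cell type all genes that edgeR's filterByExpr kept at its default minimum counts, were tested with edgeR 4.0.16 (TMM scaling, quasi-likelihood test, Benjamini-Hochberg adjustment) in R 4.3.3. DESeq2 1.42.0 and limma-voom (limma 3.58.1), other scalings, no filter, a replicate block and leaving out each passage were alternatives. The script was tested on simulated data. RPKM values used the exon lengths in the count tables. Libraries held 15107041 to 22018956 fragments, and intervals and floors cover counting error only. mESC libraries of equal passage number deviated together (r = 0.477, 0.478 and 0.555 between the deviations of transfected and untransfected cells from their group means). Those of hESCs did not (r = 0.148, 0.038 and -0.052). These numbers were read from the sample titles and taken to be passages. Pathway genes described outside the set were the 6 with the largest called species differences, plus each pathway gene called in another comparison. The E proteins were given as a whole list. Other genes named were cell type markers from the marker lists and the genes of like pattern. Reporter activity came from the deposited barcode counts (reads trimmed by the authors with cutadapt), with barcodes under 10 DNA counts left out.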

Additional observations from a re-analysis of the deposited data

How the results depend on the processing

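Of 413 alternative values for the 9 genes, 382 kept their direction and their side of the threshold, 12 newly passed it and none lost it. The other 19 turned in sign, all for genes that were called neither before nor after. Between mESCs and hESCs, BMPR1A (-0.02) became 0.053 with limma-voom, 0.032 without the filter, 0.054 with the replicate block, 0.27 with transfected libraries alone, 0.82 with gene length as an offset and -0.18 to 0.22 with 1 passage left out. ID2 (-0.19) became 0.60 with gene length, 0.043 with transfected libraries alone and -0.31 to 0.012 with 1 passage left out. For transfection in hESCs, SMAD6 (0.19) became -0.057 with the first transfection of each passage alone, ID2 ranged from -0.21 to 0.012 and ID4 from -0.65 to 0.37 with 1 passage left out. For the difference between responses, ID1 (0.23) became -0.32 with limma-voom and ranged from -1.37 to 0.98 with 1 passage left out, ID4 ranged from -0.19 to 1.01, and SMAD6 (-0.19) became 0.053 with the first transfections alone. In the comparison of mESCs with hESCs, 5 of the 9 genes were called under all 16 alternatives, with 5925 to 7540 pairs called. For transfection in hESCs, 168 genes became 994 with DESeq2, 2673 without the filter on low counts, 62 with the replicate block and 0 to 7333 when 1 passage was left out. Of the 9 genes, 1 was called with DESeq2, 2 without the filter and 0 to 5 with 1 passage left out. For transfection in mESCs, 158 genes became 55 with scaling by library size alone, 998 with DESeq2, 904 without the filter, 3316 with the replicate block and 0 to 62 with 1 passage left out, and the block called 1 of the 9 genes (ID3). For the difference between responses, 68 pairs became 230 with DESeq2 and 8 to 2146 with 1 passage left out, where 0 to 3 of the 9 genes were called. The replicate block changed no other call among the 9 genes, and DESeq2 gave ID3 no adjusted p in mESCs. The cause was not tested. Other settings for reporter sequences had no sequence on the genes' strand to apply to, and of 154 values for those on the opposite strand, under alternatives chosen after seeing the data, 35 moved by more than 1 SD. Depth limits mouse Id1, Id3 and Bmp4, which rest on 1 to 57 fragments a library.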
